A study of Mus musculus with 2 samples.

Results

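Fragments of long non-coding RNA (lncRNA) exons were followed in 2 small RNA libraries of dendritic cells, 1 from the nuclear pellet and 1 from the cytoplasm. A sequence was a member when it matched, over its full length and on the sense strand, a GENCODE vM21 transcript of type lincRNA, antisense or processed transcript in at most 10 genes. It could match no protein-coding gene, no small RNA gene and no tRNA gene. Only 10 of 408 tRNA loci could be matched, so fragments of other tRNAs may remain among the members. The 6 genes Malat1, Neat1, Gas5, Mir155hg, Gm42418 and Gm26917 and chromosome X were left out. This gave 3171 of 538100 distinct sequences, which fell in 1142 genes and held 5327 nuclear and 766 cytoplasmic reads. Both libraries came from bone marrow-derived dendritic cells of C57BL/6 mice, grown with GM-CSF and IL-4 for 7 days and stimulated with LPS, the bacterial cell wall component that these sentinel cells detect. The cells were swollen in a mild detergent buffer and spun, so that the nuclear library is the RNA of the pellet that contains nuclei and the cytoplasmic library that of the other fraction. The labels name neither the number of animals, the LPS dose nor an unstimulated sample. Each fraction was 1 library, so no difference has a replicate check and no p-value was computed. All intervals below cover counting error only.

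A lncRNA is a transcript that is often spliced and capped like an mRNA but carries no known protein. Some stay in the nucleus and act there on chromatin, others work in the cytoplasm, and still others are chiefly carriers from which small nucleolar RNAs (snoRNAs) or microRNAs (miRNAs) are cut. In miRNA carriers the nuclear enzyme Drosha cuts the hairpin out of the primary transcript, and the cut on the 5′ side sets the first base of a mature miRNA of the 5p arm. The fragments below are short pieces of such RNAs, and the method does not tell an RNA made by a processing enzyme from a breakdown product.

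The libraries had similar depth, with 2000019 nuclear and 2041383 cytoplasmic reads of 18 to 39 nt, and 1 read was worth 0.5 and 0.490 RPM, the unit of the table (reads scaled to a common total). As a check of the fractions, snoRNAs and scaRNAs together were 30.9-fold higher in the nuclear library (95% interval 30.2 to 31.8) and the cytoplasmic library held 2.82 times the nuclear level of mitochondrial tRNAs (2.65 to 3.01). Of nuclear reads 40.5%, and of cytoplasmic reads 74.8%, were miRNAs. Since RPM values are shares of a library, more lncRNA in the nuclei and less of other RNA in the pellet cannot be told apart. Exon fragments of 9 of 9 dendritic cell marker mRNAs had reads, 609 nuclear and 622 cytoplasmic in sum, and 5 of 5 macrophage markers had 297 and 723. No read matched the 3 B cell or the 4 erythroid markers, and the 3 T cell markers had 1 nuclear read, from Cd3d. The 5 neutrophil markers had 6 nuclear and 7 cytoplasmic reads, and the 3 hepatocyte markers had 4 and 0, all from Apoa1. The 3 stromal collagen markers had 79 nuclear and 6 cytoplasmic reads (Col1a1 had 49 and 5), and their part in the lncRNA values was not tested.

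Several kinds of fragment stand behind the class, and their sequences are printed first. The most abundant fragment of 6 of the genes with at least 50 reads shows the range. In 9430037G07Rik and Rab26os the capitals mark bases inside an annotated snoRNA gene, in Gm29371 the capitals mark a CCA end, and in Gm47926 they mark the first 18 letters, which recur in 258 genes. Those of Dancr and Lncpint lie in no annotated small RNA. All are written 5′ to 3′ as DNA letters, with coordinates in GRCm38 (mm10).
Dancr, chr5:74093280-74093304, plus strand: gcccggggctgcgcgagacacaaag
Lncpint, chr6:31216170-31216188, minus strand: atcccctccgggccggaga
9430037G07Rik, chr9:88598346-88598363, minus strand: ATCTGGCTTCTGAGATgg
Rab26os, chr17:24528475-24528497, plus strand: aAGCCCGTGATGAATTAATTTCT
Gm29371, chr1:87080174-87080193, plus strand: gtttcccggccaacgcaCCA
Gm47926, chr10:43690872-43690895, minus strand: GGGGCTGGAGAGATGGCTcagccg

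A further set came from miRNA carriers and was noticed after the data were seen. In the stretches below the lower-case letters are a lncRNA fragment that was sequenced, and the capitals are the mature miRNA that starts at the next base of the same exon. They are shown because the fragment's last base and the miRNA's first base abut without a gap. The mature sequences are those of RefSeq, placed by the exon sequence of GENCODE vM21.
Mir17hg with miR-17-5p, chr14:115043665-115043706, plus strand: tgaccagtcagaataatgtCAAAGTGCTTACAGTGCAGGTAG
Lncppara with let-7b-5p, chr15:85707307-85707346, plus strand: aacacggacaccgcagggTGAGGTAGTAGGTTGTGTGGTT
Lncppara with let-7c-5p, chr15:85706596-85706637, plus strand: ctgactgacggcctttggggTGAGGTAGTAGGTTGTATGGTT
4833445I07Rik with miR-191-5p, chr9:108568305-108568347, plus strand: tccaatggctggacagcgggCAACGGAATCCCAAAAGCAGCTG
6720427I07Rik with let-7d-5p, chr13:48536078-48536118, minus strand: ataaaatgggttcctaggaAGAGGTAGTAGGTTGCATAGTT

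LncRNA exon fragments were higher in the nuclear library. They made up 0.266% of nuclear reads (exact Clopper-Pearson 95% interval 0.259 to 0.274) and 0.0375% of cytoplasmic reads (0.0349 to 0.0403), a level ratio of 7.10 (6.58 to 7.67). Exon fragments of mRNAs had a ratio of 1.56 (1.55 to 1.58), and the lncRNA ratio was 4.55 times as large (4.21 to 4.91). Fragments of introns that an annotated transcript retains had a ratio of 12.98 (12.3 to 13.8), above that of lncRNA exons, whose ratio was 0.547 of it (0.497 to 0.602). So by counting error the class sat between spliced coding exons and retained introns. Of the 1142 genes, 1048 had more nuclear than cytoplasmic reads, 922 had no cytoplasmic read and 63 had no nuclear read. The reads were thinly spread, since 461 genes had 1 read and 1047 had fewer than 10. A gene with 1 read is missing from 1 library by necessity. The same counts over genes of all classes are not given here, so these counts do not set the class apart. Few sequences were common to both libraries: 2693 of the distinct sequences were seen in the nuclear library only, 395 in the cytoplasmic library only and 83 (2.62%) in both. Low overlap was general, since 31195 of all 538100 sequences (5.80%) were in both libraries. At this depth a sequence with few reads can be missed in a library that holds it.

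The nuclear excess was larger among the many genes with few reads than among the genes with most reads. The 1130 genes under 50 reads held 3698 nuclear and 401 cytoplasmic reads, a ratio of 9.41 (8.49 to 10.5). The 12 genes with at least 50 reads held 1629 and 365, a ratio of 4.56 (4.06 to 5.12). A gene of at least 50 reads was called higher or lower when the nuclear and cytoplasmic RPM differed at least 2-fold, with 0.5 reads added to each, and the interval of the ratio excluded 1. By this rule 11 of the 12 lncRNA genes were higher in the nuclear library, none was lower and Gm26809 was neither. Of 934 small RNAs and genes of all classes with at least 50 reads, 40.8% were called higher and 11.2% lower in the nuclear library. The median log2 ratio was 2.80 for the lncRNA genes and 0.62 for all 934. The 12 include genes with shared or small RNA sequences, described below, so each is given with what its reads are.

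**Figure D1:**
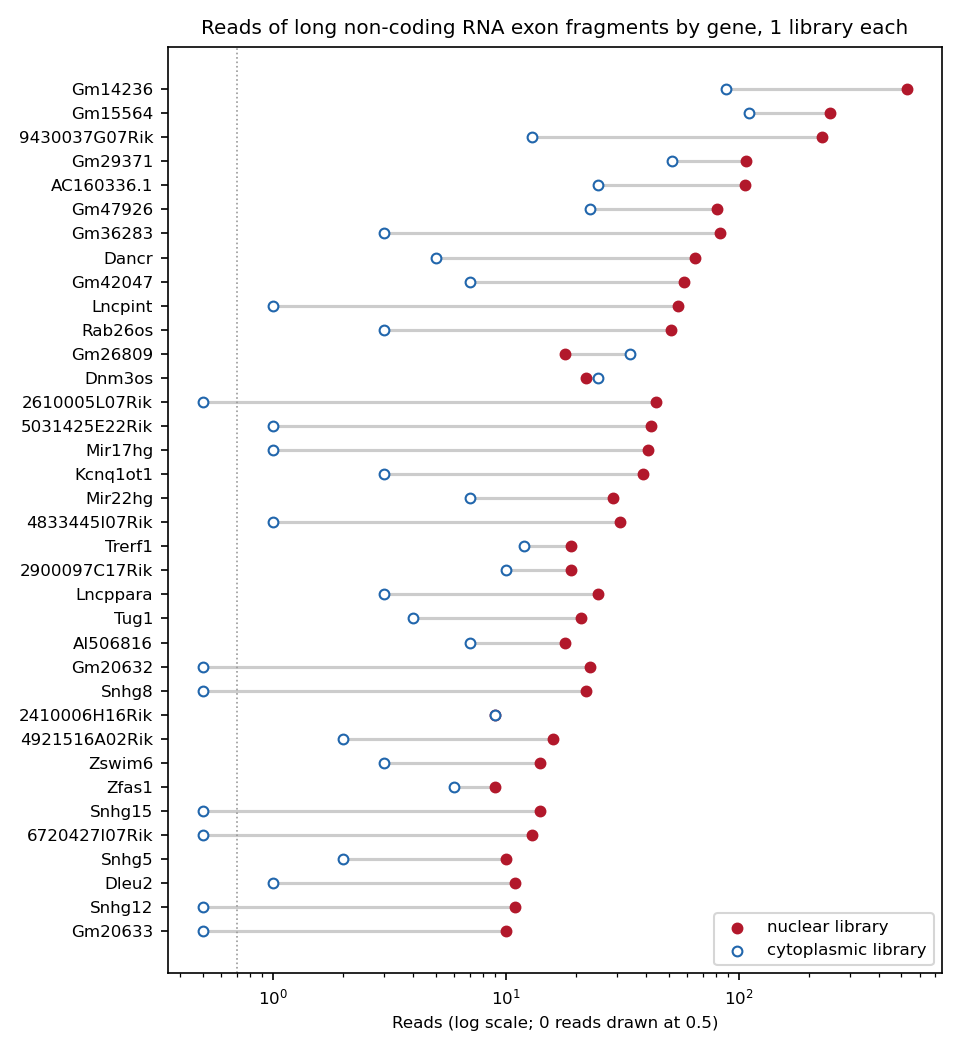
Reads of lncRNA exon fragments in the nuclear (filled) and the cytoplasmic library (open circles) for the 36 genes named, on a log axis on which 0 reads is drawn at 0.5, left of the dotted line. Nuclear reads exceeded cytoplasmic reads except in Gm26809 (18 and 34), Dnm3os (22 and 25) and 2410006H16Rik (9 and 9, where the circles coincide).

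Of the lncRNAs known for a regulatory role, Lncpint had the largest excess among those measured. Lncpint, a transcript induced by the tumour suppressor p53, had 55 nuclear reads and 1 cytoplasmic read (27.5 and 0.490 RPM). Its ratio of 56.1 had a wide interval, 9.66 to 2257, because it rested on that 1 read. The reads came from 42 sequences spread over the gene, and the busiest 40-nt window held 8.93% of them. Dancr, a lncRNA described as a brake on cell differentiation, had 65 and 5 reads (32.5 and 2.45 RPM), a ratio of 13.3 (5.40 to 42.2). Its fragments were stacked, with 87.1% of the reads in 1 window around the sequence printed above. Dancr also hosts Snora26, but 1.43% of its reads touched that snoRNA.

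Most of the listed lncRNAs known from the nucleus gave no fragment, with Malat1 and Neat1 left out by the rule. Of 9 such genes listed outside chromosome X, 3 had a read. Kcnq1ot1, the imprinted antisense transcript that silences neighbours of Kcnq1 in cis, had 39 nuclear and 3 cytoplasmic reads (ratio 13.3, 4.22 to 67.1). Tug1, first described in the developing retina, had 21 and 4 reads (5.36, 1.81 to 21.5), and Pvt1, the neighbour of Myc, had 6 and 1. No read was seen for Meg3, Airn, Miat, Rmst, Hottip or Hotair. Together the 3 genes had a ratio of 8.42 (4.03 to 20.3), and the interval of the whole class lies within that range.

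LncRNAs known from the cytoplasm were not lower in the nuclear library. 2900097C17Rik, the mouse Norad, which binds Pumilio proteins in the cytoplasm, had 19 nuclear and 10 cytoplasmic reads, a ratio of 1.94 whose interval (0.858 to 4.67) includes 1. Of its reads, 65.5% also matched another gene. Snhg1, a snoRNA host, had 4 and 1 reads and H19 had none. With Dancr, which is on the same list, the 3 genes with reads had a ratio of 5.61 (3.27 to 10.2), and that value rests mainly on Dancr.

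Of 17 genes listed as lncRNAs linked to immune cells, 12 had a read and 6 had at least 10. Lncpint, Mir17hg, Mir22hg, Trerf1, Dleu2 and Snhg5 were those 6, and the group had 178 nuclear and 29 cytoplasmic reads, a ratio of 6.26 (4.21 to 9.63). Trerf1 had 19 and 12 reads, a ratio of 1.62 (0.745 to 3.65). It counts as a lncRNA here only by its annotation as a processed transcript. Whether its reads come from an mRNA was not tested. The lncRNAs best known from LPS-stimulated myeloid cells were near the limit of detection. Gm14005 (Morrbid), which controls the lifespan of myeloid cells, had 3 and 1 reads, AW112010 had 3 and 3, Mirt2 had 3 and 0, and Ptgs2os2 (lincRNA-Cox2) and Ttc39aos1 (lincRNA-EPS) had none. A gene without a read may still hold up to 3 reads in a library of this depth. Reads of fragments of 18 nt or more do not measure the full-length RNA, so these values are no measure of how strongly the lncRNAs are expressed.

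**Figure D2:**
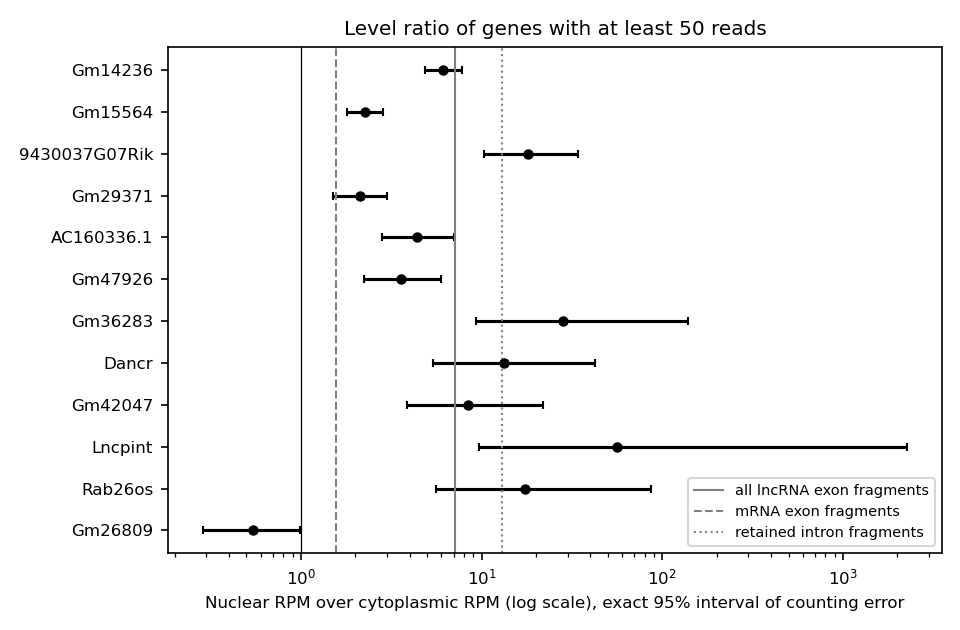
Ratio of nuclear to cytoplasmic RPM (log axis) for the 12 lncRNA genes with at least 50 reads, with exact 95% intervals of counting error (1 library in each group). Vertical lines mark a ratio of 1 and the ratios of all lncRNA exon fragments (7.10), mRNA exon fragments (1.56) and retained intron fragments (12.98), and Gm26809 is the gene left of 1.

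By reads, the level ratios of genes that host snoRNAs and of the other lncRNA genes differed by less than counting error. The hosts, 31 in number, held 496 nuclear and 59 cytoplasmic reads, a ratio of 8.58 (6.54 to 11.4), and the other lncRNA genes had 4831 and 707, a ratio of 6.97 (6.44 to 7.56). The ratio of the 2 ratios was 1.23 (0.926 to 1.66). By distinct sequences in place of reads the order turned, with 1.47 (1.06 to 2.06) for hosts and 2.57 (2.32 to 2.85) for other genes, and the intervals did not overlap. Those counts were scaled to all distinct sequences of each library, 400087 nuclear and 169208 cytoplasmic. Much of the hosts' signal lay on snoRNA genes themselves. Reads that touched an annotated snoRNA but ran past its edge numbered 280 nuclear and 16 cytoplasmic in 7 genes, a ratio of 17.9 (10.8 to 31.7). Host reads clear of small RNA genes numbered 216 and 43, a ratio of 5.13 (3.68 to 7.29), and their ratio over other lncRNA genes was 0.725 (0.515 to 1.04).

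A pair of hosts, 9430037G07Rik and Rab26os, were made up almost wholly of snoRNA ends. 9430037G07Rik had 229 nuclear and 13 cytoplasmic reads (114.5 and 6.37 RPM), a ratio of 17.98 (10.3 to 34.3). In it 97.9% of the reads overlapped the snoRNA gene Gm23017. The printed fragment ends 2 bases past that gene and stood inside 217 of the 242 reads. Nearly all reads (99.2%) also matched another gene, for the leading fragment 9330159M07Rik and Snhg5. Of these reads, 131 matched Snord50a once up to 3 bases were removed at the 3′ end. Snhg5, which hosts Snord50a and Snord50b, kept 10 and 2 reads under its own name. Rab26os, an antisense transcript that holds Snord60, had 51 and 3 reads, a ratio of 17.4 (5.61 to 86.9), and 92.6% of them overlapped Snord60. The printed Rab26os fragment starts 1 base before Snord60 and follows it for 22 bases.

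The other hosts had few reads and most leaned to the nucleus. Snhg8 (Snora24) had 22 nuclear reads and 0 cytoplasmic, so that with 3 reads set as the cytoplasmic floor the nuclear level was at least 7.49-fold higher. Snhg15 (Snora9) had 14 and 0 (at least 4.76-fold), and Snhg12 (5 annotated snoRNA genes) had 11 and 0 (at least 3.74-fold). AI506816, whose only annotated snoRNA gene is Mir3096, had 18 and 7 (2.62, 1.05 to 7.43). Among hosts with at least 10 reads, the interval included 1 for a pair: 2410006H16Rik, which carries Snord49a, Snord49b and Snord65, had 9 and 9 reads (1.02, 0.359 to 2.90), and Zfas1, which carries Snord12, had 9 and 6 (1.53, 0.487 to 5.23). In 2410006H16Rik 6 of the reads crossed a splice junction.

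Summed, hosts of miRNAs had a ratio near that of the class. That sum leans on Dnm3os, described below, which gave 22 of the nuclear and 25 of the cytoplasmic reads. Those reads cannot be told from a mature miR-199a-3p with added bases. Gm36283, which holds the annotated miRNA gene Gm25591, gave 83 and 3, the most nuclear reads of any of these hosts. Genes with an annotated miRNA on the same strand (31) held 366 nuclear and 51 cytoplasmic reads, a ratio of 7.32 (5.45 to 10.0). Among their fragments, 22 sequences ended at the base just before a mature 5p miRNA, as in the stretches printed above. They numbered 81 nuclear and 3 cytoplasmic reads, a ratio of 27.6 (9.10 to 136), and came from 7 miRNAs in 4 genes. A further 20 nuclear reads and 1 cytoplasmic read ended within 3 bases of that point, and no fragment ended at any other position up to 30 bases upstream or 10 bases into the miRNA. No fragment started at the base after a mature miRNA. Fragments that lie wholly within an annotated hairpin were removed by the rule, so only those that reach past its edge could be seen on either side.

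**Figure D3:**
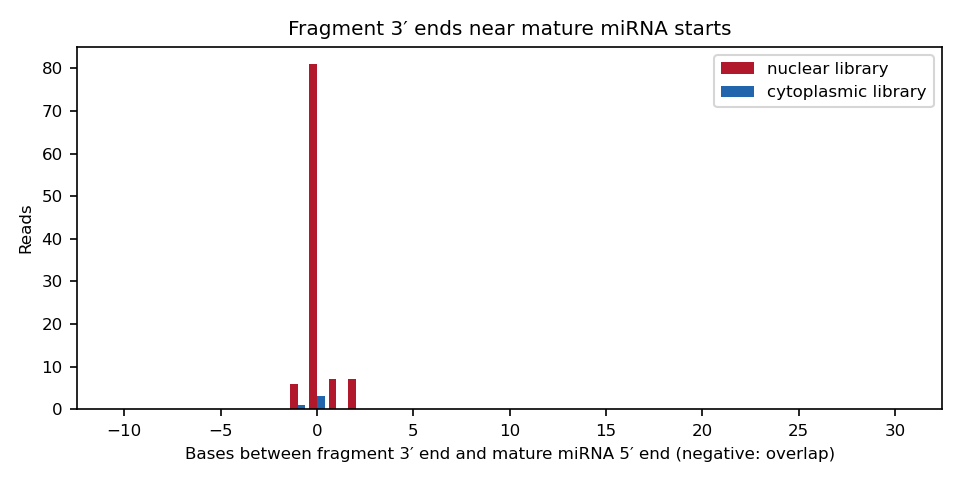
Reads of lncRNA fragments by the number of bases between the fragment's 3′ end and the 5′ end of a mature miRNA, in the nuclear and the cytoplasmic library. The reads stand at 0 (81 nuclear and 3 cytoplasmic), with 6, 7 and 7 nuclear reads at -1, 1 and 2 and none elsewhere in the range.

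Mir17hg, the carrier of the miR-17-92 cluster, gave more of these reads than any of the other 3 carriers. It had 41 nuclear reads and 1 cytoplasmic read, and 38 and 1 of them ended just before miR-17-5p. The leading fragment, 19 nt long, had 29 reads and 1 read. Mature miR-17-5p itself had 350 nuclear and 429 cytoplasmic reads, a ratio of 0.833 (0.721 to 0.961). By RPM the fragment upstream and the miRNA cut from the same hairpin thus lay on opposite sides of 1. This depends on the scaling: the miRNA total shifts every log2 ratio by 0.88, which puts miR-17-5p above 1 too.

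The other carriers had fewer reads. In Lncppara, 13 nuclear reads and 1 cytoplasmic read ended just before let-7b-5p, and 10 and 0 just before let-7c-5p. Mature let-7b-5p had 39822 and 47523 reads (ratio 0.855, 0.844 to 0.867), and let-7c-5p had 73267 and 109486 (0.683, 0.677 to 0.689). In 4833445I07Rik, 9 and 1 reads ended before miR-191-5p, which had 17179 and 28114 reads (0.624, 0.612 to 0.636). In 6720427I07Rik, 9 and 0 reads ended before let-7d-5p, which had 17095 and 33343 reads (0.523, 0.514 to 0.533), and 1 nuclear read ended before let-7f-5p, which had 583 and 974 reads (0.611, 0.550 to 0.678). The remaining read, in Mir17hg, ended before miR-18a-5p, which had 68 and 65 reads, a ratio of 1.07 whose interval (0.749 to 1.52) includes 1. For each of the 7 miRNAs the upstream fragment had more nuclear than cytoplasmic reads, though for 4 of them there was no cytoplasmic read and 2 of those 4 rested on 1 read.

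Elsewhere in miRNA hosts the reads lay away from the hairpin. Mir22hg, the carrier of miR-22, had 29 nuclear and 7 cytoplasmic reads (4.23, 1.81 to 11.4) from 24 sequences, none on an annotated small RNA. Dleu2, which carries miR-15a and miR-16-1, had 11 and 1 (11.2, 1.63 to 483). Gm20632 had 23 and 0 reads (at least 7.83-fold higher) and Gm20633 10 and 0 (at least 3.40-fold). Zswim6, a member only by its annotation as a processed transcript, had 14 and 3 (4.76, 1.33 to 25.9). 4921516A02Rik had 16 and 2 (8.17, 1.92 to 73.2). Dnm3os, the carrier of miR-199a and miR-214, was the exception among hosts of at least 10 reads, with 22 and 25 reads (0.898, 0.483 to 1.66). Its leading fragment is shown because its last bases, in capitals, lie past a splice junction while the rest lies in the hairpin of Mir199a-2.
Dnm3os, chr1:162217883-162218024 with an intron between, plus strand: acagtagtctgcacattgGTTT
All 47 Dnm3os reads were of this kind, and each matched Mir199a-2 once up to 3 bases were removed at the 3′ end. A mature miR-199a-3p with added bases and a spliced Dnm3os fragment cannot be told apart by these letters. Without such sequences the gene had no read.

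Among genes with no annotated small RNA in them, AC160336.1, Gm42047 and Lncpint had reads spread over the exons. AC160336.1 had 107 nuclear and 25 cytoplasmic reads (53.5 and 12.2 RPM) from 91 sequences, a ratio of 4.37 (2.81 to 7.05). Gm42047 had 58 and 7 reads from 48 sequences (8.46, 3.85 to 21.96), but 81.5% of them also matched another gene. 5031425E22Rik, below the minimum of 50, had 42 and 1 reads from 35 sequences (42.9, 7.28 to 1733). 2610005L07Rik, annotated as a transcribed pseudogene, had 44 and 0 reads (at least 14.97-fold higher), 79.5% of them shared with other genes. In AC160336.1, Gm42047, 5031425E22Rik and 2610005L07Rik the busiest 40-nt window held between 10.6% and 45.5% of the reads.

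Genes of this spread kind were compared with stacked genes, a split made after the data were seen. Of the 95 genes with at least 10 reads, 64 had under 50% of their reads in the busiest 40-nt window. These had 1228 nuclear and 160 cytoplasmic reads, a ratio of 7.83 (6.64 to 9.30). The 31 stacked genes had 1752 and 393, a ratio of 4.55 (4.08 to 5.09). The stacked sum therefore lay nearer to equal levels, and the intervals did not overlap, but single genes weigh on it. Gm15564 (246 and 111 reads), Gm29371 (108 and 52), Gm26809 (18 and 34) and Dnm3os (22 and 25) are stacked genes with low ratios. Other stacked genes, such as 9430037G07Rik (229 and 13) and Dancr (65 and 5), had ratios above that of the spread group. The difference is thus not a trait of every stacked gene. In several of the most abundant stacked genes the leading letters also stood in reads that did not lie in the gene, and the part of such sequences in the difference was not tested.

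Gm14236, the gene with most reads, was 1 such stack. It had 528 nuclear and 88 cytoplasmic reads (264 and 43.1 RPM), a ratio of 6.12 (4.88 to 7.76), all in 1 window of chromosome 2. Its fragments, shown because a shift of 1 base went with a different ratio, were these.
Gm14236, first form, chr2:168011159-168011176, plus strand: gggcgggcgtgggggtgg
Gm14236, second form, chr2:168011160-168011177, plus strand: ggcgggcgtgggggtggg
The first form had 100 nuclear and 38 cytoplasmic reads, and the second had 114 and 4. The first form also stood inside 411 reads of the whole data set, of which 57.9% lay in Gm14236, so the same letters occur in RNA that continues differently.

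Gm15564 and Gm29371 had the smallest ratios among the genes called higher. Gm15564 had 246 and 111 reads (123 and 54.4 RPM), a ratio of 2.26 (1.80 to 2.86), with 99.4% in 1 window.
Gm15564, chr16:35981743-35981761, minus strand: agggaacgtgagctgggtt
The same letters are known from 28S ribosomal RNA, which was not among the transcripts matched here, and its part in the value was not tested. Gm29371 had 108 and 52 reads (54.0 and 25.5 RPM), a ratio of 2.12 (1.51 to 3.01), and 93.1% of the reads ended in CCA. CCA is the end that every mature tRNA carries. The printed fragment stood inside 1257 reads of the data set, of which 6.92% lay in Gm29371. With another scaling of the libraries neither gene reached 2-fold: by trimmed mean (TMM) factors the log2 ratio was 0.70 for Gm15564 and 0.61 for Gm29371.

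Over all members, fragments that end in CCA stood apart. They had 150 nuclear and 73 cytoplasmic reads, a ratio of 2.10 (1.58 to 2.81), against 7.62 (7.04 to 8.27) for other members, and the first ratio was 0.275 of the second (0.204 to 0.373). They made up 2.82% of nuclear and 9.53% of cytoplasmic members. Most of the reads that end in CCA came from Gm29371. Of the 35 genes with such fragments, 25 had no cytoplasmic read and 5 had no nuclear read. A similar case was taken out beforehand: 21 sequences in B230208H11Rik that lie on the tRNA locus n-TLtaa3 had 44 nuclear and 150 cytoplasmic reads, with a cytoplasmic level 3.34 times the nuclear one (2.37 to 4.79).

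Gm47926, Gm36283 and Gm26809 complete the measured genes. Gm47926 had 81 and 23 reads (3.59, 2.24 to 5.99), and all of its sequences matched other genes too. Its first 18 letters, capitals above, are known from the start of B2 repeats, and 102 of its reads matched an annotated small RNA after 3′ removal, Gm26154 for the 3 leading forms. Gm36283 had 83 and 3 reads (28.2, 9.33 to 140) in 1 window, and its leading fragment, gaggcaggaggatcacga, stood inside 206 reads, of which 28.6% lay in the gene. Gm26809 was the only measured gene with more cytoplasmic reads, 18 nuclear and 34 cytoplasmic, a ratio of 0.540 (0.287 to 0.984). Its leading fragment had 0 nuclear and 14 cytoplasmic reads.
Gm26809, chr6:18845901-18845920, plus strand: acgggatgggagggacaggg
The excess was under 2-fold and was not called. By TMM factors its log2 ratio was -1.34 and it was called lower, and by the miRNA total it was 0.02, so its direction depended on the scaling.

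With several kinds of uncertain sequence removed, a choice made after the data were seen, the class stayed higher in the nuclear library. Sequences of 1 gene, with no overlap with a small RNA gene, no CCA end and no small RNA match after 3′ removal, numbered 2624 in 1031 genes. They had 4128 nuclear and 539 cytoplasmic reads, a ratio of 7.82 (7.14 to 8.57). The filter kept fragments of the Gm14236, Gm15564 and Gm36283 stacks, so this ratio is not free of sequences in doubt. By gene type the ratio was 7.50 (6.65 to 8.48) for lincRNA genes, 6.70 (5.96 to 7.55) for antisense genes and 6.35 (5.20 to 7.82) for processed transcript genes. These 3 intervals overlapped.

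A larger share of cytoplasmic than of nuclear lncRNA fragments crossed a splice junction. The count was 44 of 5327 nuclear reads (0.826%, 0.601 to 1.11) and 38 of 766 cytoplasmic reads (4.96%, 3.53 to 6.75). Dnm3os gave 22 and 25 of these. Without sequences that match a small RNA after 3′ removal the count was 19 of 5087 (0.374%, 0.225 to 0.583) and 13 of 705 (1.84%, 0.985 to 3.13), an odds ratio of 5.01 (2.26 to 10.7). Among mRNA exon fragments 4.17% of nuclear and 7.63% of cytoplasmic reads crossed a junction, an odds ratio of 1.90 (1.82 to 1.98). The lncRNA fragments crossed junctions less often than mRNA fragments in both libraries, by intervals that did not overlap with or without the small RNA ends. 2410006H16Rik had 2 nuclear and 4 cytoplasmic such reads. Ifi30, a member only by its annotation as a processed transcript, had 2 and 2.

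**Figure D4:**
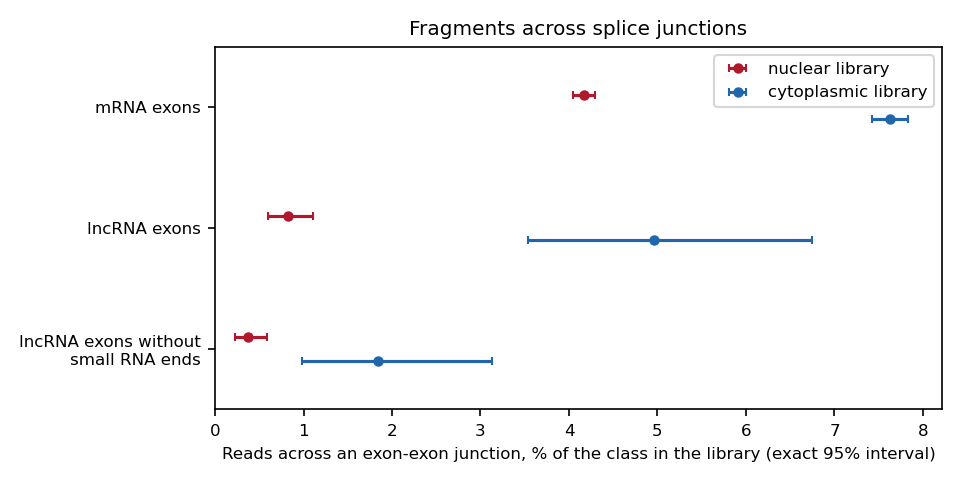
Share of reads that cross an exon-exon junction in the nuclear and the cytoplasmic library, with exact 95% intervals, for mRNA exon fragments, lncRNA exon fragments, and lncRNA exon fragments without sequences that match a small RNA after removal of up to 3 bases at the 3′ end. The cytoplasmic share is above the nuclear share in each of the 3 sets (7.63% and 4.17% in the first, 1.84% and 0.374% in the last).

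LncRNA fragments were short, and their most frequent length was 18 nt, not the 22 nt of miRNAs. Their median length was 20 nt in both libraries, against 21 nt for mRNA fragments and 22 nt for miRNAs. The shortest length listed, 18 nt, held 23.8% of nuclear and 20.5% of cytoplasmic reads, and lengths of 21 to 23 nt held 29.6% and 27.9%, where miRNAs had 80.9% and 79.7%. Pieces shorter than 18 nt were not listed. The cytoplasmic peak at 18 nt (157 reads, against 136 at 20 nt) rests on the leading Gm14236 fragment, which gave 38 of the 157. In the cytoplasmic library 22 nt held 11.1% of the reads, above 9.53% at 21 nt and 7.31% at 23 nt (85, 73 and 56 reads), while the nuclear shares fell steadily over these lengths. The rise at 22 nt rests on the leading Dnm3os fragment, which gave 19 of the 85 reads. That fragment cannot be told from a mature miR-199a-3p with added bases. The first base differed between the libraries: A began 29.9% of nuclear and 43.3% of cytoplasmic reads, and G 33.5% and 25.6%. Single stacks can weigh on these shares, since both printed Gm14236 forms begin with G and the printed Gm15564 fragment with A. The part of such stacks was not tested. In mRNA fragments A began 33.8% and 53.8%. GC content was 57.6% and 57.4% in lncRNA fragments.

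**Figure D5:**
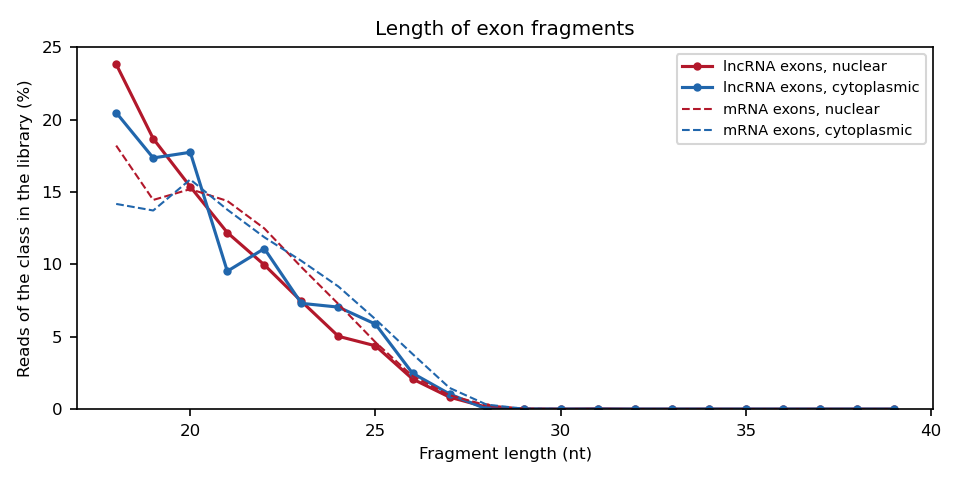
Share of reads at each fragment length from 18 to 39 nt, for lncRNA exon fragments (solid lines with points) and mRNA exon fragments (dashed lines) in both libraries. The lncRNA shares are highest at 18 nt (23.8% nuclear and 20.5% cytoplasmic), and the cytoplasmic lncRNA line has a small local rise at 22 nt (11.1%). That rise rests on the leading Dnm3os fragment (19 reads), and the cytoplasmic peak at 18 nt on the leading Gm14236 fragment (38 reads).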

How the data were processed

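The authors' deposited table lists sequences and their values in both libraries as RPM (reads relative to a fixed total). The submitters' processing notes name CASAVA and mm10. For trimming, alignment and filters the sources used here name nothing. The columns were taken as nuclear and cytoplasmic by the last letter of their names. All values above 0 were whole multiples of 1 read (100% at a tolerance of 0.1 read), and reads were recovered from them. Sequences were matched exactly to GENCODE vM21 transcripts in Python 3.11.15, and 10 of 408 tRNA loci lay in exons and could be matched; no genome was used here. A sequence in several genes was given to the one with most reads. Ratios carry exact (Clopper-Pearson, conditional on the reads of both libraries) 95% intervals from scipy 1.17.1, and the interval and ratio scripts were tested on simulated data. With 1 library per group no count model could be fitted. The rule for genes named took all with at least 50 reads, list genes with at least 10, and the 5 with most reads below 50; the sequences printed are mainly the most abundant of these. The members and lists were chosen with earlier results of these data known. Alternatives covered scaling (edgeR 4.0.16 TMM factors among them), shared sequences, minimum reads and pseudocount.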

Additional observations from a re-analysis of the deposited data

How the results depend on the processing

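With 1 library in each group and no replicates, intervals cover counting error only, and no replicate could be left out. No paired analysis was possible because the labels give no replicate numbers and each fraction is 1 library. The class stayed higher in the nuclear library under every alternative run. Its ratio was 5.13 by TMM factors, 4.74 by the median of ratios and 13.1 by the miRNA total, which shift every log2 ratio by -0.47, -0.58 and 0.88. It was 5.76 without each gene's most abundant sequence and 2.46 by distinct sequences. With the filter for several kinds of uncertain sequence, added after seeing the data, it was 7.82. In the same order snoRNA hosts had 6.20, 5.73, 15.8, 6.78, 1.47 and 5.49, and other genes 5.04, 4.65, 12.9, 5.65, 2.57 and 7.99. Hosts had 6.51 with sequences of a single gene and 5.13 without small RNA overlap (added). The genes called higher numbered 34 of 40 with a minimum of 20 reads, 6 of 6 with 100 and 145 of 1142 with none. They numbered 6 of 7 with the filter for uncertain sequences and 0 of 2 by distinct sequences. By TMM factors and by the median of ratios 9 of 12 were higher and 1, Gm26809, was lower. By distinct sequences the log2 ratio of 4 genes called higher changed sign, Gm14236 (-0.95), Gm15564 (-0.67), Gm29371 (-0.79) and Gm47926 (-0.95), and so did that of 5 genes without a call: Trerf1 (-1.03), 2900097C17Rik (-0.78), AI506816 (-0.50), Zfas1 (-0.95) and 2410006H16Rik (-2.32). Counts of distinct sequences were scaled to all distinct sequences of each library, which were more in the nuclear library. A negative value therefore need not mean fewer nuclear than cytoplasmic sequences. Without small RNA overlap Lncppara went from 2.89 to -1.56. Of 421 values of named genes under alternatives, 371 stayed within the main interval, and 18, in 12 genes, changed sign, 4 of them in genes with a call. The junction share was 0.131% nuclear and 1.31% cytoplasmic with an overhang of at least 5 nt, and 0.374% and 1.84% without small RNA ends (added). The median cytoplasmic length was 21 nt by distinct sequences.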
